A study of Mus musculus with 6 samples.

Results

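Krueppel-like factors are transcription factors that bind CACCC boxes and GC-rich DNA through zinc fingers at their C-terminal end. In lymphocytes Klf2 maintains quiescence and switches on receptors that guide cells through lymph nodes, and Klf10 is a TGF-beta-induced member that takes part in Foxp3 induction in mouse CD4 T cells. The 8 genes described here are Klf2, Klf3, Klf4, Klf6, Klf7, Klf9, Klf10 and Klf13. They were read from every probe set that the array's annotation gives to 1 of these symbols, 30 probe sets of 45037 on the array once control probe sets were left out. Klf3 and Klf9 had 7 probe sets each, Klf6 had 5, Klf7 had 4, Klf13 had 3, Klf4 had 2, and Klf2 and Klf10 had 1 each. A probe set is a group of short probes against 1 transcript, and different probe sets of a gene are given apart.

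The samples were CD4+ Foxp3+ regulatory T cells (Treg) of the mesenteric lymph node, taken from mice that were 4 to 6 weeks old. The first group, called TBmc iTreg, was sorted as negative for Nrp from TBmc mice with a Foxp3 GFP reporter after 1 week of oral ovalbumin (Ova) at 1%. TBmc mice lack recombinase and are known to express 1 T cell receptor, which recognises ovalbumin, and 1 B cell receptor. The second group, called WT Treg, held total CD4+ Foxp3+ cells from wild-type Balb/c mice with the same reporter, with no feeding given in the labels. Each group had 3 arrays, and nothing in the labels says whether replicates came from separate mice, so p-values describe only how far these arrays spread, a spread that may be technical. Genotype, receptor, feeding and gate differ together and cannot be told apart.

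The labels of 1 array in each group disagree with the group. TBmc iTreg replicate 1 has the strain label Balb/c without TBmc or reporter, and WT Treg replicate 1 has a cell type label that reads Nrp-. The values are MAS5 signals on a linear scale, and median signals were 24.3 to 27.4 in TBmc iTreg and 21.1 to 32.3 in WT Treg. RNA quality was read from the Gapdh signal at the 3′ end over that at the 5′ end, which in log2 units was 2.48 to 3.38 in TBmc iTreg and 2.28 to 2.53 in WT Treg (two-sided exact permutation p = 0.2, where 3 arrays against 3 cannot go below 0.1). The same ratio for beta-actin was 0 to 0.38 in TBmc iTreg and 0.14 to 0.32 in WT Treg (two-sided exact permutation p = 0.8). T cell markers were bright, with Cd3e at 3389 to 6949 in TBmc iTreg and 2865 to 5005 in WT Treg. Of 8 T cell and Treg markers 3 differed above 0 and 5 below, with a median log2 difference of -0.33 and 0 calls. Il2ra, the IL-2 receptor chain CD25, was lower without overlap, at 1169 to 2256 in TBmc iTreg and 3537 to 5860 in WT Treg (log2 difference -1.35, limma adjusted p = 0.370), as was the Treg transcription factor gene Ikzf2, at 1215 to 1641 in TBmc iTreg and 2021 to 2275 in WT Treg (log2 difference -0.56, limma adjusted p = 0.808). Their part in the values of the Krueppel-like factors was not tested. The single Foxp3 probe set was dim, at 15.6 to 54.6 in TBmc iTreg and 9.16 to 45.7 in WT Treg. Background was gauged from 27 bacterial control probe sets, taken as unspiked because their signals were low on every array. Their highest signal was 28.5 and is called the control maximum.

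No Krueppel-like factor passed the test between TBmc iTreg and WT Treg. With limma and Benjamini-Hochberg adjustment over 27022 tested probe sets, 0 of 27 tested member probe sets had an adjusted p under 0.05, and the smallest was 0.804. The same test called 7 probe sets of the whole array, or 0.0259%, so a count of 0 among 27 does not stand apart from the background. At an unadjusted p under 0.05 it gave 0 member probe sets, where 6.21% of all tested probe sets were under that level. The groups did not overlap in 1 of the 27, which was higher in TBmc iTreg, where 11.4% of all tested probe sets had no overlap, 4.54% higher and 6.89% lower. The median log2 difference, TBmc iTreg minus WT Treg, was 0.11 over the 27 probe sets and -0.02 over all tested probe sets. In 18 of the 27 the difference was above 0, and 47.9% of all tested probe sets had a difference above 0.

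Most member differences were smaller than the spread between arrays, but the share of all tested probe sets for which this holds was not counted. In 24 of the 27 tested probe sets the absolute difference was under the pooled SD within groups on the log2 scale. The exceptions were 1429360_at of Klf3, 1433508_at of Klf6 and 1432543_a_at of Klf13. For 10 of the 27 the 95% interval of the difference lay wholly between -1 and 1, and for the other 17 it reached past 1 of these limits. Of the 10, 7 were above the control maximum on all arrays; the others were 1452723_at and 1436763_a_at of Klf9 and 1456030_at of Klf13. Differences were taken on log2(signal + 16), so a 2-fold change of such dim probe sets is less than 1 unit. An interval between -1 and 1 therefore does not by itself limit their change to under 2-fold. The share of all tested probe sets with such an interval was not counted either, so these member counts are a description. In bulk samples, fewer cells expressing a gene and less RNA per cell cannot be told apart.

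**Figure D1:**
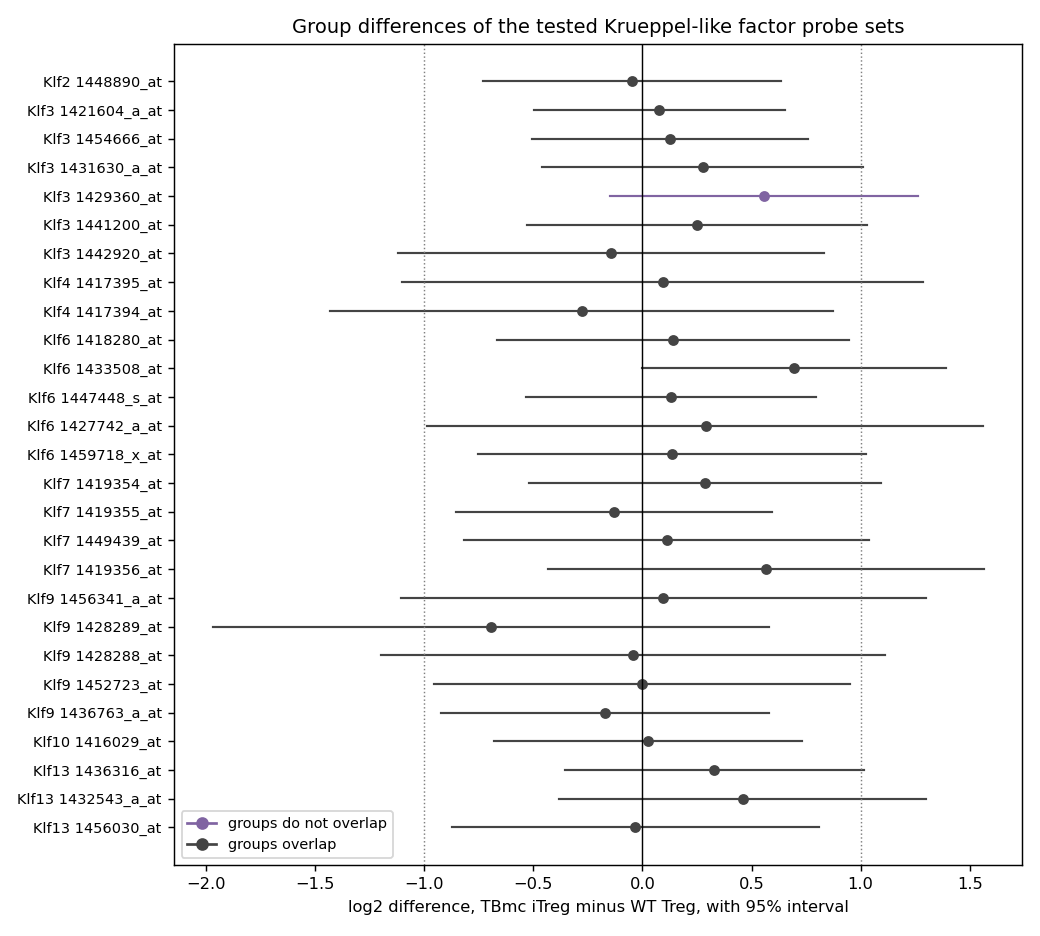
Log2 difference, TBmc iTreg minus WT Treg, of each tested probe set (point) with its 95% interval (line), grouped by gene from Klf2 at the top to Klf13 at the bottom. Dotted lines mark -1 and 1, and the single probe set whose groups do not overlap, 1429360_at of Klf3, is in purple.

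Klf2, which drives transcription of the egress receptor S1pr1 in T cells, had closely similar means in both groups. Its probe set 1448890_at had signals of 657, 1323 and 1137 in TBmc iTreg replicates 1, 2 and 3, against 939, 1080 and 1083 in WT Treg replicates 1, 2 and 3. The highest and the lowest value were both in TBmc iTreg, and the WT Treg arrays lay between them. The mean was 1039 ± 343 in TBmc iTreg and 1034 ± 82.2 in WT Treg (SD, n = 3 each). The log2 difference was -0.05 with a 95% interval from -0.73 to 0.63 (limma adjusted p = 0.991). In both groups replicate 1 was the lowest. The sign of the difference followed single arrays, from -0.25 to 0.25 when each was left out.

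The upstream sequence of Klf2 is shown because it holds a MEF2 site, which links this gene to the Erk5 pathway in other cell types. The 250 bases before the annotated start were taken from RefSeq (GRCm38.p6, the C57BL/6J reference and not the Balb/c strain of these mice), at chr8:72318812-72319061 on the plus strand. Capitals mark the MEF2 consensus, which begins 118 bases before the start.
Klf2: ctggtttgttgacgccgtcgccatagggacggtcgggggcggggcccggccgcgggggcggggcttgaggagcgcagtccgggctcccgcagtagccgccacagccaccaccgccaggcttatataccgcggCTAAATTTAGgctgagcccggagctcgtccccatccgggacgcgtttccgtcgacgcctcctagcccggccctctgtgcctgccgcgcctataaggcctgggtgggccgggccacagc
The site reads the same on both strands and was counted once. A MEF2 match on either strand was found in 0.508% of 32851 windows of 250 bases from all genes, and in 1 of the 7 member genes with a RefSeq window (none was used for Klf10). A match describes letters and does not show binding, and the arrays measured RNA only.

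Klf10, the TGF-beta-induced member, also had closely similar means and was the most even member across TBmc iTreg arrays. Its probe set 1416029_at gave 271, 296 and 296 in TBmc iTreg replicates 1, 2 and 3, against 240, 261 and 358 in WT Treg. All 3 TBmc iTreg values lay inside the range of WT Treg. The mean was 288 ± 14.6 in TBmc iTreg and 286 ± 63.0 in WT Treg (SD, n = 3 each), and the log2 difference was 0.03 with an interval from -0.68 to 0.73 (limma adjusted p = 0.995).

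Klf3, a repressor that recruits the corepressor CtBP, gave the single probe set without overlap. Its brightest probe set, 1421604_a_at, had 1733, 1958 and 2323 in TBmc iTreg replicates 1, 2 and 3, against 2207, 1789 and 1696 in WT Treg. These groups overlapped, with a log2 difference of 0.08 and an interval from -0.50 to 0.65 (limma adjusted p = 0.979). Probe set 1429360_at had 582, 513 and 983 in TBmc iTreg, against 495, 425 and 423 in WT Treg. Every TBmc iTreg array was above every WT Treg array there, but TBmc iTreg replicate 2 was only just above WT Treg replicate 1, and replicate 3 carried most of the gap. The mean was 693 ± 254 in TBmc iTreg and 448 ± 41.3 in WT Treg (SD, n = 3 each), and the log2 difference was 0.56 with an interval from -0.15 to 1.26 (limma adjusted p = 0.862). Without TBmc iTreg replicate 3 the difference was 0.28.

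The probe sets of Klf3 did not give 1 common value. The 6 that were tested differed by -0.14 to 0.56, with 5 above 0 and 1 below. Both 1429360_at and 1431630_a_at were highest in TBmc iTreg replicate 3, the second at 491, 487 and 958 in TBmc iTreg, against 532, 424 and 564 in WT Treg. The seventh, 1458487_at, had a mean signal of 8.63 in TBmc iTreg and 13.4 in WT Treg, under the control maximum on all arrays, and was not tested.

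The upstream sequence of Klf3 is shown because, of the 7 member windows, it held the most CACCC boxes, which members of this family bind. It covers the 250 bases before the RefSeq start, chr5:64803271-64803520 on the plus strand of GRCm38.p6. Capitals mark CACCC on either strand, read as GGGTG on the printed strand when it lies on the other.
Klf3: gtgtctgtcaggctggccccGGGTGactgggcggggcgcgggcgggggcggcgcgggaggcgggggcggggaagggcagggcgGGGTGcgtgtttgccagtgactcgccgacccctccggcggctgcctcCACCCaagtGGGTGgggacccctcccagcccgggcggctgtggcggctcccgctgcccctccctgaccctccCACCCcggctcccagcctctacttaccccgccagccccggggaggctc
It held 5 CACCC boxes, against 3 in Klf7, 1 each in Klf2, Klf9 and Klf13, and 0 in Klf4 and Klf6. Of all windows of this length 52% held at least 1, so 5 of 7 member genes with a box is a description and no more. The share of all windows with 5 or more boxes was not counted. The GC box GGGCGG, counted on both strands, stood in 6 of the 7 and in 32.7% of all windows. The single CACCC box of the Klf2 window begins 19 bases before the start, apart from the MEF2 site, and matches of CACCC and GGGCGG were counted separately also where they share a base, as in Klf13.

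Klf6 is a broadly expressed member that responds quickly to stimulation. Its brightest probe set, 1418280_at, gave 3210, 2012 and 1071 in TBmc iTreg replicates 1, 2 and 3, against 2047, 1369 and 1845 in WT Treg. TBmc iTreg thus held both the highest and the lowest array, a range of 3-fold, where WT Treg ranged over 1.5-fold, and its difference was smaller than the spread within the groups. The log2 difference was 0.14 with an interval from -0.67 to 0.95 (limma adjusted p = 0.974), and without TBmc iTreg replicate 1 it was -0.23.

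All 5 probe sets of Klf6 were tested and all 5 differences were above 0, from 0.13 to 0.69, with groups that overlapped in each. The highest difference of any member probe set was that of 1433508_at, singled out here after its value was seen. It had 2928, 1675 and 2509 in TBmc iTreg, against 1966, 1043 and 1396 in WT Treg. TBmc iTreg replicates 1 and 3 were above all WT Treg arrays, and replicate 2 was below WT Treg replicate 1. The mean was 2370 ± 638 in TBmc iTreg and 1469 ± 466 in WT Treg (SD, n = 3 each). The log2 difference was 0.69 ± 0.32 (standard error; limma unadjusted p = 0.05002, adjusted p = 0.804). It ranged from 0.47 to 0.93 over the alternatives and its adjusted p was never below 0.524. Its limma unadjusted p ran from 0.0161 with a block for the replicate number to 0.205 without WT Treg replicate 2. In TBmc iTreg replicate 3 this probe set and 1418280_at of the same gene gave opposite pictures, 2509 being above all WT Treg arrays and 1071 below all of them.

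**Figure D2:**
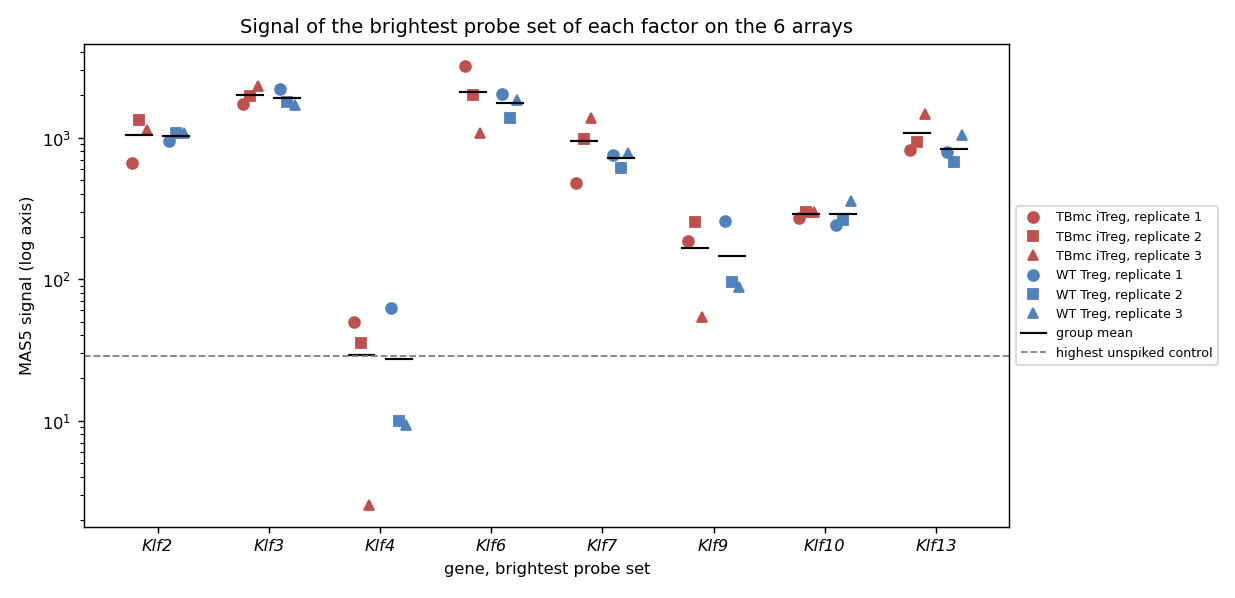
MAS5 signal (log axis) of the brightest probe set of each gene on every array, TBmc iTreg in red to the left of WT Treg in blue, with the replicate shown by symbol and the group mean by a bar. The groups overlap for all 8 genes, and Klf4 straddles the dashed line at 28.5, the highest control taken as unspiked. Levels of different genes come from different probes and are not comparable.

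Klf4, known for its role in monocyte differentiation and for slowing T cell division, was near background. Its brighter probe set, 1417395_at, gave 49.6, 35.4 and 2.54 in TBmc iTreg replicates 1, 2 and 3, against 62.3, 9.96 and 9.38 in WT Treg. The other, 1417394_at, gave 46.9, 3.63 and 2.41 in TBmc iTreg, against 51.1, 4.81 and 13.1 in WT Treg. On both, replicate 1 of each group was above the control maximum of 28.5, as was TBmc iTreg replicate 2 on the first, and all other arrays were under it. The log2 differences were 0.09 (limma adjusted p = 0.989) and -0.28 (limma adjusted p = 0.960), and Klf4 was the only member with no probe set above the control maximum on all 6 arrays.

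Klf9, a member induced by glucocorticoid and thyroid hormones, was above the control maximum on all arrays with 1 of its 7 probe sets. That probe set, 1456341_a_at, gave 187, 254 and 53.7 in TBmc iTreg replicates 1, 2 and 3, against 256, 95.7 and 87.4 in WT Treg. WT Treg replicate 1 was the highest array and TBmc iTreg replicate 3 the lowest, so the groups overlapped over almost their whole range. The log2 difference was 0.10 with an interval from -1.11 to 1.30 (limma adjusted p = 0.989). Of the 5 tested probe sets 1 differed above 0 and 4 below, from -0.69 to 0.10. The lowest of these, 1428289_at, had 12.8, 114 and 26.0 in TBmc iTreg, against 141, 56.5 and 42.4 in WT Treg. Its difference of -0.69 rested on single arrays, being -1.33 without TBmc iTreg replicate 2 (limma unadjusted p = 0.0313), -0.24 without TBmc iTreg replicate 1 and -0.27 without WT Treg replicate 1. The probe sets 1436952_at and 1422264_s_at were too dim to test, with means of 16.2 and 0.279 in TBmc iTreg and 10.7 and 7.90 in WT Treg, all under the control maximum.

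Klf7, a member best known from neurons and also expressed in lymphocytes, showed a wide spread among TBmc iTreg arrays. Its brightest probe set, 1419354_at, gave 478, 984 and 1379 in TBmc iTreg replicates 1, 2 and 3, against 751, 612 and 776 in WT Treg. Replicate 1 was below and replicates 2 and 3 above all WT Treg arrays. The log2 difference was 0.29 with an interval from -0.52 to 1.09 (limma adjusted p = 0.934), and -0.04 without TBmc iTreg replicate 3. The 4 probe sets, all tested, differed by -0.13 to 0.57, with 3 above 0 and 1 below. The highest, 1419356_at, was 0.26 without TBmc iTreg replicate 3, 0.88 without WT Treg replicate 2 and 0.21 without WT Treg replicate 3.

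Klf13, which in human T cells activates the chemokine gene CCL5 late after activation, differed above 0 on its brighter probe sets. Probe set 1436316_at gave 818, 936 and 1464 in TBmc iTreg replicates 1, 2 and 3, against 796, 675 and 1039 in WT Treg. The groups overlapped because WT Treg replicate 3 was above TBmc iTreg replicates 1 and 2. The log2 difference was 0.33 with an interval from -0.36 to 1.02 (limma adjusted p = 0.917). Probe set 1432543_a_at gave 181, 235 and 438 in TBmc iTreg, against 179, 172 and 218 in WT Treg, differing by 0.46 (limma adjusted p = 0.910), which was 0.72 without TBmc iTreg replicate 1 and 0.12 without TBmc iTreg replicate 3. The third, 1456030_at, was near the control maximum, with means of 32.5 ± 12.8 in TBmc iTreg and 33.3 ± 10.9 in WT Treg (SD, n = 3 each). On all 3 probe sets replicate 3 was the highest array of both groups, and without TBmc iTreg replicate 3 the difference of 1436316_at was 0.09.

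Some member probe sets had the same replicate number highest in both groups. Replicate 1 was the highest array of both groups in 7 of the 27 tested probe sets, among them both of Klf4 and 4 of the 5 of Klf6, and replicate 3 in 6, among them all 3 of Klf13. Of 13 tested immediate early genes, which cells switch on within minutes of stimulation or handling, replicate 1 was the highest array of both groups in 4, namely Fos, Fosb, Junb and Dusp1. Others ran differently, among them Egr1, Egr2, Egr3 and Nr4a1, which were lowest in replicate 1 within WT Treg. The share of all tested probe sets with such an order was not counted, so these counts are a description. Probe sets of the same gene are also not independent of each other. Fos, a subunit of AP-1, had 2357, 421 and 3.18 in TBmc iTreg replicates 1, 2 and 3, against 1112, 22.2 and 20.5 in WT Treg. The phosphatase gene Dusp1 had 3815, 1717 and 908 in TBmc iTreg, against 2664, 424 and 973 in WT Treg. Both genes shared with 1418280_at of Klf6 the same pair of highest arrays, TBmc iTreg replicate 1 and then WT Treg replicate 1; these genes were picked after their values were seen.

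Klf2 was lowest in replicate 1 of both groups, as were 4 of the 27 tested probe sets with Klf2 included. The others were 1416029_at of Klf10, 1419355_at of Klf7 and 1456030_at of Klf13. This count too has no share over all tested probe sets beside it. The mean of the 13 immediate early genes on the log2 scale was 9.49, 8.90 and 8.35 in TBmc iTreg replicates 1, 2 and 3, against 9.32, 8.35 and 8.65 in WT Treg. Replicate 1 of each group also carries the doubtful label. Spike-in controls, a measure that rises when an array's sample signal was dim before scaling, averaged 12.41, 12.56 and 12.87 in TBmc iTreg, against 12.12, 12.34 and 12.90 in WT Treg, and were highest in replicate 3 of both groups, as Klf13 was. The part of handling, labels or scaling in these values was not tested.

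**Figure D3:**
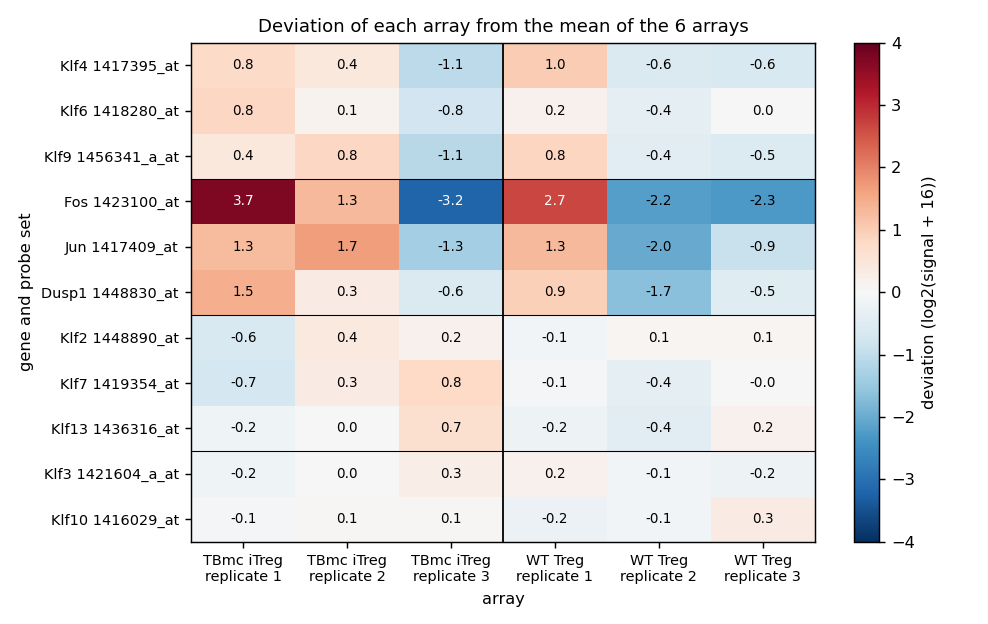
Deviation of each array (columns, TBmc iTreg left of WT Treg) from the mean of the 6 arrays on log2(signal + 16), for the brightest probe set of each factor and of the immediate early genes Fos, Jun and Dusp1, in an order set after values were seen. Replicate 1 of both groups is positive for the 6 genes of the upper blocks, with 3.74 in TBmc iTreg and 2.67 in WT Treg for Fos, and negative for Klf2, Klf7, Klf13 and Klf10 below.

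Genes that Klf2 and Foxo1 control or work with in T cells gave 0 calls among 10 tested, with 4 differences above 0 and 6 below and a median of -0.08. At an unadjusted p under 0.05 there was 1 higher, where 2.44% of all tested probe sets were, and 1 lower, where 3.77% were. The lower one was Il7r, the IL-7 receptor chain, with 1441, 1295 and 590 in TBmc iTreg replicates 1, 2 and 3, against 3730, 1425 and 2580 in WT Treg (log2 difference -1.20, limma adjusted p = 0.706). The higher one was Ccr7, a lymph node homing receptor, with 2591, 1798 and 2826 in TBmc iTreg, against 1371, 1193 and 1857 in WT Treg (log2 difference 0.70, limma adjusted p = 0.775). In each of them 1 array crossed into the range of the other group. Pik3ip1, an inhibitor of PI3 kinase, came next, with a log2 difference of 0.78 (limma adjusted p = 0.808).

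The sphingosine phosphate receptors were named after their values were seen, because S1pr1 is the textbook target of Klf2. S1pr1 had 626, 1092 and 1157 in TBmc iTreg replicates 1, 2 and 3, against 1164, 1486 and 1142 in WT Treg, differing on the log2 scale by -0.43 with an interval from -1.11 to 0.24. Without TBmc iTreg replicate 1 it was -0.16. S1pr1 was lowest in TBmc iTreg replicate 1, the array in which Klf2 was lowest too, but the other arrays were ordered differently. Klf2 was highest in TBmc iTreg replicate 2, at 1323, and S1pr1 in WT Treg replicate 2, at 1486. A link between the levels of these genes was not tested. S1pr4 had 617, 1242 and 1910 in TBmc iTreg, against 1329, 1465 and 1695 in WT Treg, differing by -0.38, which was 0.05 without TBmc iTreg replicate 1.

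**Figure D4:**
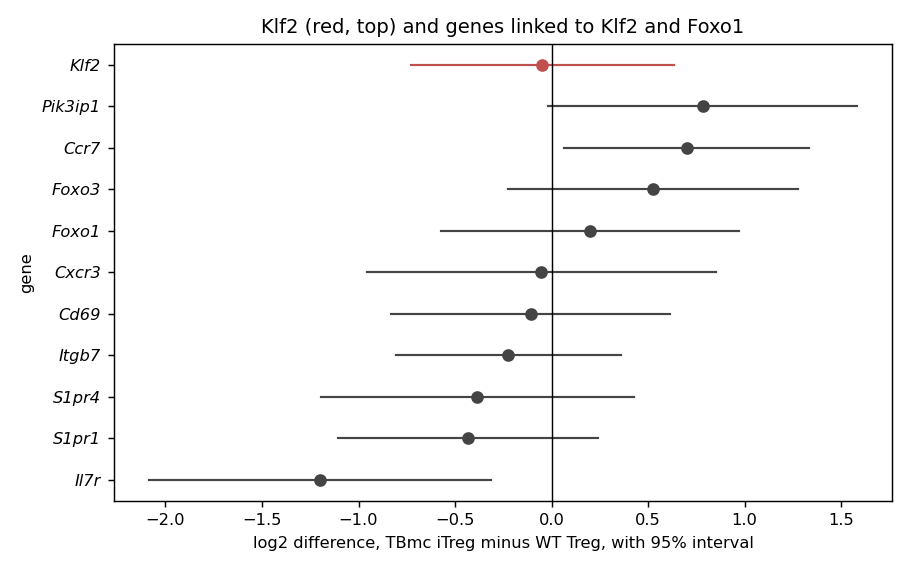
Log2 difference, TBmc iTreg minus WT Treg, with 95% interval, for Klf2 (red, top) and the 10 tested genes linked to Klf2 and Foxo1 in T cells, each by its brightest probe set. Klf2 lies at -0.05, Pik3ip1 and Ccr7 are highest at 0.78 and 0.70, and Il7r is lowest at -1.20; none passed the test after adjustment.

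By a fixed rule, the genes whose pattern over the 6 arrays was most like that of Klf2 were Tap1, St6galnac1 and Pdlim2, with Pearson r of 0.992, 0.991 and 0.989 on the log2 scale. The points share their arrays and the search covered all named genes, so these values are a description. Tap1, a subunit of the peptide transporter for MHC class I, had 365, 690 and 639 in TBmc iTreg replicates 1, 2 and 3, against 531, 575 and 602 in WT Treg, with the same low replicate 1 in both groups. St6galnac1 was near or under the control maximum, at 6.96 to 34.8 in TBmc iTreg and 17.5 to 25.6 in WT Treg.

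Relatives and partners of the family gave no calls either. Of the other Krueppel-like factors 8 of 9 had a probe set and 2 were bright enough to test, with 0 calls. Klf11, a TGF-beta-induced relative of Klf10, had 81.9, 70.9 and 83.7 in TBmc iTreg replicates 1, 2 and 3, against 63.1, 66.6 and 62.5 in WT Treg. The groups did not overlap, but the log2 difference was 0.24 (limma adjusted p = 0.952). Klf16 differed by -0.60 (limma adjusted p = 0.897), which was -0.92 without WT Treg replicate 1 and -0.28 without WT Treg replicate 3, and the brightest probe sets of Klf1, Klf5, Klf12, Klf14, Klf15 and Klf17 were all under the control maximum on every array.

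Of the related Sp factors 4 were tested, with 1 difference above 0, 3 below and 0 calls. Sp6 was lower without overlap, with 92.3, 168 and 50.9 in TBmc iTreg replicates 1, 2 and 3, against 183, 247 and 496 in WT Treg (log2 difference -1.44, limma adjusted p = 0.689), and its other tested probe set also differed below 0. Among 10 corepressor and coactivator partners 5 differences were above 0 and 5 below, with a median of 0.07 and 0 calls. The deacetylase genes Hdac1 and Hdac2 had the smallest p-values, with log2 differences of -0.59 and -0.51 (limma adjusted p = 0.850 and 0.870). For Hdac2 the 3 probe sets ran from -0.63 to 0.31, and the value used was -0.21 without TBmc iTreg replicate 3. Ubiquitin ligases known to act on members of the family, 4 in all, gave 0 calls and a median of -0.10.

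The TGF-beta pathway around Klf10 gave 0 calls among 9 tested genes, with 6 differences above 0, 3 below and a median of 0.12. Smad2, a receptor-activated signal transducer, was lower without overlap, with 351, 419 and 216 in TBmc iTreg replicates 1, 2 and 3, against 461, 583 and 649 in WT Treg (log2 difference -0.79, limma adjusted p = 0.785). It was -1.21 on its other probe set, and on the first -0.52 without TBmc iTreg replicate 3. Genes of quiescence and cell cycle linked to the family, 9 tested, also gave 0 calls, with 6 above 0 and 3 below. Myc, a growth regulator, was lower without overlap, with 429, 243 and 300.2 in TBmc iTreg, against 609, 547 and 958 in WT Treg (log2 difference -1.08, limma adjusted p = 0.657). Among 13 tested immediate early genes 9 were above 0 and 4 below with a median of 0.26, and Ier2 was the 1 with an unadjusted p under 0.05, at -0.99 (limma adjusted p = 0.775).

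Markers of other cell types that express these factors were low beside Cd3e, but some were as bright as Klf4. Of 6 endothelial and stromal markers, in which Klf2 and Klf4 are high, 3 were under the control maximum on every array, among them Cdh5, the defining cadherin of endothelium. Their summed signal of 405 to 858 in TBmc iTreg and 388 to 437 in WT Treg was mostly Pecam1, at 345 to 735 in TBmc iTreg and 341 to 385 in WT Treg, a gene that lymphocytes also express. The 5 macrophage and monocyte markers summed to 96 to 177 in TBmc iTreg and 56.2 to 109 in WT Treg. Among them Lyz2 was higher without overlap, with 44.6, 44.2 and 23.1 in TBmc iTreg replicates 1, 2 and 3, against 22.0, 9.01 and 8.79 in WT Treg (log2 difference 0.87, limma adjusted p = 0.785), and Adgre1 was under the control maximum on every array. Cd68 had 74.4, 67.8 and 21.5 in TBmc iTreg replicates 1, 2 and 3, against 61.4, 23.8 and 16.4 in WT Treg (log2 difference 0.50, limma adjusted p = 0.917). All 3 tested macrophage and monocyte markers differed above 0, where 47.9% of all tested probe sets did. Like Klf4, Cd68 and the macrophage and monocyte sum were highest in replicate 1 of both groups. Their part in the Klf4 values was not tested. Summed signals were 49.4 to 110 in TBmc iTreg and 50.1 to 111 in WT Treg for 4 B cell markers, 77.3 to 202 in TBmc iTreg and 75.5 to 105 in WT Treg for 5 dendritic cell markers, and 101 to 225 in TBmc iTreg and 73.2 to 107 in WT Treg for 2 CD8 T cell markers. Of these Cd8b1 was higher without overlap, with 69.6, 132 and 70.1 in TBmc iTreg replicates 1, 2 and 3, against 63.3, 33.7 and 34.0 in WT Treg (log2 difference 0.82, limma adjusted p = 0.850). Natural killer markers, 2 in all, were under the control maximum on every array, as was Hba-a1 of the 2 erythroid markers.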

How the data were processed

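RNA of 6 samples, 3 per group as given by the titles, was measured on one-colour Affymetrix arrays. The deposited values are MAS5 intensity signals, 1 per probe set, on a linear scale, per the submitters' processing notes; the sources used here give no MAS5 version. The 2% trimmed mean was 150.0 on every array, so scaling preceded deposit. The number of arrays limits the precision, and no detection calls were used.

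Of 45101 probe sets 64 were controls; 34945 had 1 gene symbol in the platform annotation, 932 several and 9160 none. Signals were transformed as log2(signal + 16). Probe sets whose mean reached the 40th percentile, 4.91 in log2 units, entered limma 3.58.1 (R 4.3.3; lmFit, then eBayes with trend = TRUE), two-sided, with Benjamini-Hochberg adjustment at 0.05 over 27022 probe sets, as TBmc iTreg minus WT Treg. Intervals are 95% intervals of that fit, not adjusted. For other genes the probe set with the highest mean was used. The members, lists and alternatives were chosen with earlier results of these data known. Values in every array are given for the brightest probe set of each member and for others at an unadjusted p under 0.05 or without overlap, with up to 3 genes of other lists by smallest p; further ones are stated as chosen after their values were seen or given to show disagreement between probe sets.

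On data simulated for this comparison with 27022 probe sets and 200 of them changed, the test recovered 0.309% of changes of 1 log2 unit, 34.3% of 2 and 71.2% of 3, and 3.34% of calls were false. Alternatives were pseudocounts of 1 and 64, quantile normalization, a common median, no filter, 1 probe set per gene, a block for the replicate number, each array left out, both arrays with label doubts left out, and the replicate 3 arrays left out.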

Additional observations from a re-analysis of the deposited data

How the results depend on the processing

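With limma, 0 member probe sets were called under each of the alternatives, with 0 to 2 at an unadjusted p under 0.05 and a smallest adjusted p of 0.524. Of 383 alternative values of the 27 member probe sets, 323 kept their direction and 60 changed sign. In all alternatives that tested them, 5 probe sets kept 1 direction: 1429360_at of Klf3, 1433508_at of Klf6, 1436763_a_at of Klf9, and 1436316_at and 1432543_a_at of Klf13. Of these, 1436763_a_at was not tested with a pseudocount of 64 or quantile normalization, and its signals were under the control maximum on all arrays. Every other tested member probe set changed sign under at least 1 alternative. With a pseudocount of 1 the sign turned for Klf4 1417395_at (-0.05) and Klf9 1452723_at (0.57), with one of 64 for Klf9 1428288_at (0.04), and with quantile normalization for Klf9 1452723_at (0.09) and Klf13 1456030_at (0.02). With a common median it turned for Klf2 1448890_at (0.04), Klf9 1428288_at (0.01), Klf9 1452723_at (0.11) and Klf13 1456030_at (0.01). Without both arrays with label doubts it turned for Klf2 1448890_at (0.18), Klf3 1454666_at (-0.04) and 1442920_at (0.40), Klf6 1418280_at (-0.11) and 1459718_x_at (-0.16), Klf7 1419355_at (0.02), Klf9 1428289_at (0.18) and 1452723_at (0.10), and Klf10 1416029_at (-0.04). Without both replicate 3 arrays it turned for Klf3 1421604_a_at (-0.11) and 1441200_at (-0.11), Klf7 1449439_at (-0.35) and 1419356_at (-0.10), and Klf9 1428288_at (0.29). Leaving out 1 array at a time gave, for those that changed sign, Klf2 1448890_at from -0.25 to 0.25, Klf3 1421604_a_at from -0.03 to 0.19, 1431630_a_at from -0.04 to 0.44, 1441200_at from -0.06 to 0.53 and 1442920_at from -0.36 to 0.19. Klf4 1417395_at ranged from -0.27 to 0.64 and 1417394_at from -0.86 to 0.20. Klf6 1418280_at ranged from -0.23 to 0.55, 1447448_s_at from -0.07 to 0.37, 1427742_a_at from -0.11 to 0.92 and 1459718_x_at from -0.06 to 0.29. Klf7 1419354_at ranged from -0.04 to 0.70, 1419355_at from -0.24 to 0.08 and 1449439_at from -0.23 to 0.40, Klf9 1456341_a_at from -0.30 to 0.68, 1428288_at from -0.64 to 0.48 and 1452723_at from -0.49 to 0.28, Klf10 1416029_at from -0.08 to 0.19 and Klf13 1456030_at from -0.24 to 0.14. Among other named genes, S1pr4 ranged from -0.75 to 0.05 and Fos from -0.35 to 3.13. The cause was not tested.

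Over all tested probe sets 1 was called higher and 6 lower. A pseudocount of 1 and no filter each gave 0 higher and 2 lower, a common median 2 higher, 1 probe set per gene 0 higher and 3 lower, the arrays without label doubts 0 and 0, and those without both replicate 3 arrays 0 higher and 2 lower. Leaving out 1 array gave 0 to 3 higher and 0 to 8 lower. At an unadjusted p under 0.05 there were 658 higher and 1020 lower, and 885 higher and 694 lower with a common median, so that the balance of directions depends on the scaling. With the replicate number as a block, 1 was called higher and 2 lower, and no member was called. Deviations of same-numbered arrays correlated at 0.19, 0.04 and 0.12. These values were low. Each array correlated best with its own number, but TBmc iTreg replicate 2 did so at 0.04, against 0.02 with WT Treg replicate 1. Pairing was not tested. Nothing in the labels says whether same-numbered arrays were paired. Depth in the form of signal over background limits Klf4 and most probe sets of Klf9.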
